A study of Mus musculus with 2 samples.

Results

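Genes of cyclic AMP and cyclic GMP signalling were compared between ovaries of progesterone receptor (PR) knockout and wild-type mice during induced ovulation. The genes were taken by symbol: phosphodiesterases, adenylyl cyclases, subunits of protein kinase A (PKA), both cyclic GMP-dependent kinases, A-kinase anchoring proteins and guanylyl cyclases, with the natriuretic peptide genes Nppc, Npr1, Npr2 and Npr3 and the exchange factors Rapgef3 and Rapgef4. This gave 67 of the 18193 genes that a single-symbol probe set represents, read by 167 probe sets. Rapgef4 was not analysed here. The name pattern also takes in Pde4dip and Pde6d, which are no phosphodiesterase enzymes.

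One ovary sample came from mice without PR, a hormone-activated transcription factor, and the other from wild-type mice. Both were C57BL/6 animals aged 24 to 28 days given PMSG (5 IU, a horse gonadotropin that makes follicles grow) and, 48 h later, hCG (5 IU, a gonadotropin that acts like luteinizing hormone). The ovaries were removed 11 h after hCG, and RNA of each genotype was read on 1 Affymetrix mouse array. The allele that removes PR and the number of animals behind each RNA sample are not given in the sources used here.

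With 1 array per genotype there was no replicate and no test, so every value below is a single measurement and every difference is one between 2 arrays. Batch, animal and genotype cannot be told apart. Signals are linear MAS5 intensities in arbitrary units. The floor for a measurable signal was each array's median signal with control probe sets left out, 37.95 on the PR knockout and 36.2 on the wild-type array. Differences are PR knockout minus wild type on the log2 scale, taken from the probe set of each gene with the highest mean log2 signal. The 3 probe sets for the targeted gene, Pgr, read 3.64, 42.8 and 21.1 in the PR knockout ovary, against 2.97, 36.5 and 1.03 in the wild-type ovary, so they give no check of the genotype labels. The ovarian markers Inha, with signals of 8073 in the PR knockout and 8399 in the wild-type ovary, and Zp3, with 345 and 322 in the same order, lay far above the floors. The ratio of 3′ to 5′ control signals was 0.83 in the PR knockout and 0.87 in the wild-type sample for Gapdh, and 1.30 and 1.29 for beta-actin.

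As background, luteinizing hormone acts on follicle cells through a receptor that stimulates adenylyl cyclase. The cyclic AMP so made activates PKA and the Rapgef exchange factors, anchoring proteins hold PKA at particular places in the cell, and phosphodiesterases end the signal. Cyclic GMP is made in follicles mainly by the natriuretic peptide receptor NPR2 and, in vessels and stroma, by nitric oxide-sensitive guanylyl cyclase. In the granulosa cells it passes through gap junctions to the oocyte, where it holds the phosphodiesterase PDE3A in check and so keeps meiosis arrested until the ovulatory surge.

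Most of these genes with a measurable signal differed by less than 1.5-fold between the arrays, as did most genes of the array. Those further apart encode a cyclic GMP-dependent kinase, cyclic AMP phosphodiesterases, A-kinase anchoring proteins and a guanylyl cyclase subunit. Of the 67 genes, 49 reached the floor on at least 1 array and are called measured. The 49 were selected by signal on either array, so those close to the floor enter through 1 array, Pde3a and Pde8b through the PR knockout and Npr1 through the wild type. Of these 49, 2 were at least 2-fold lower in the PR knockout ovary, the cyclic GMP-dependent kinase gene Prkg2 and the cyclic AMP phosphodiesterase gene Pde4b. The share of all 11316 measured genes that were at least 2-fold lower was 1.72%, against 4.08% of the members. No member was at least 2-fold higher (0 of 49), where 1.15% of all measured genes were. At 1.5-fold, Pde4d and Akap2 joined the lower genes, making 4 of 49 or 8.16%, against 4.75% of all measured genes. Gucy1a1, Akap7 and Akap8l were at least 1.5-fold higher, 3 of 49 or 6.12%, against 6.54% of all measured genes. Counts this small leave the shares of members imprecise and are no result about the members, so the values of the single genes carry the description.

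The bulk of the module lay close to equality. The median difference of the 49 measured members was 0.08 on the log2 scale, beside 0.06 for all measured genes, and the quartiles were -0.10 and 0.24, beside -0.14 and 0.27. The median size of a difference, without its sign, was 0.21 for the members and 0.21 for all measured genes. In direction, 30 members (61.2%) were higher and 19 lower in the PR knockout ovary, where 57.7% of all measured genes were higher. The members' split was 25 and 24 after scaling to the median. The direction of the small differences rests on the scaling. The split of all genes at least 2-fold apart depended on scaling, from 130 higher and 195 lower as deposited to 89 and 230 after scaling to the median, 93 and 214 after quantile normalization and 87 and 230 without the loess trend. The members' split of 0 higher and 2 lower was the same under these 3 rescalings.

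**Figure D1:**
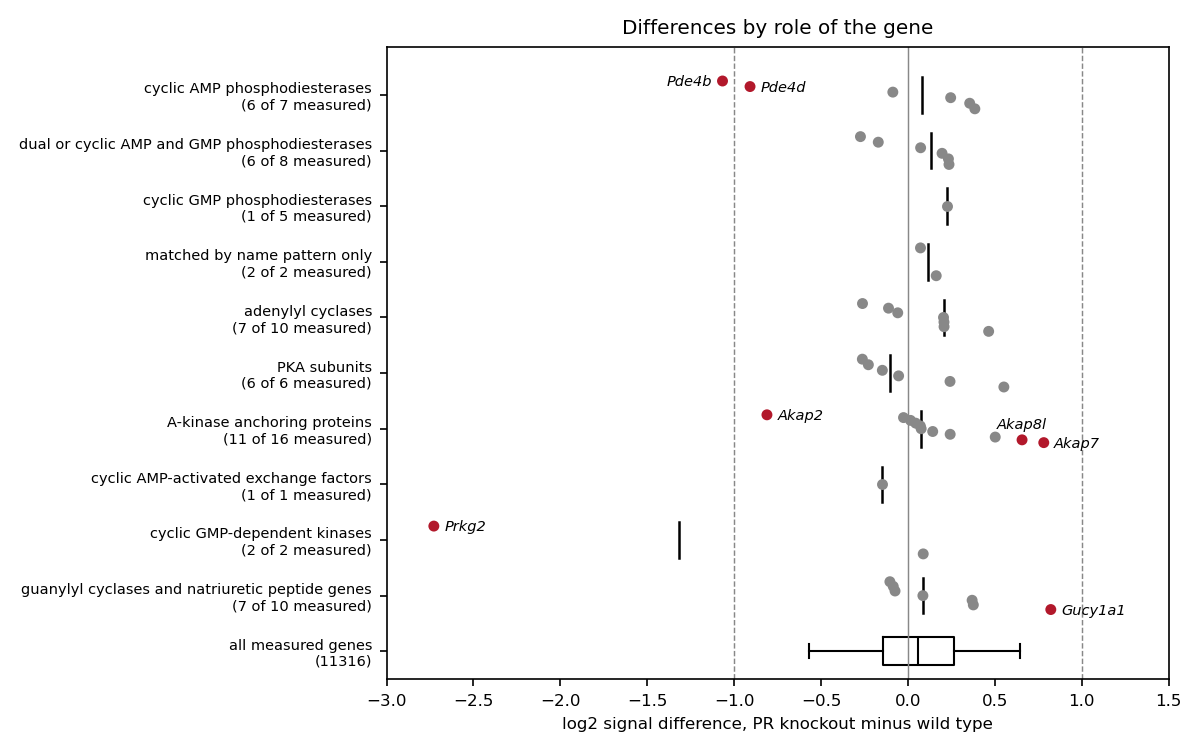
Differences in log2 signal, PR knockout minus wild type, for the 49 measured members grouped by role, with a black line at each group's median and dashed lines at 2-fold. Red points are at least 1.5-fold apart. The box gives the quartiles of all 11316 measured genes and its whiskers the percentiles 5 and 95, at -0.57 and 0.65, and Prkg2 lies far to the left of it at -2.73.

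The cyclic GMP-dependent kinases parted from each other. Prkg2 encodes the membrane-anchored kinase, and Prkg1 the kinase best known for relaxing smooth muscle. Prkg2 had a signal of 91.8 in the PR knockout and 608 in the wild-type ovary, a difference of -2.73 or 6.63-fold. Its further probe sets read 104 in the PR knockout against 478 in the wild-type ovary, and 26.8 against 119. The last of these knockout signals is under the floor, so its difference of -1.64 is a bound. All 3 probe sets were lower in the PR knockout ovary. Set to the mean over probe sets, Prkg2 differed by -2.19. Prkg1 lay only a little above the floors, at 56.9 in the PR knockout and 53.5 in the wild-type ovary, a difference of 0.09 that turned to -0.02 without the loess trend.

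**Figure D2:**
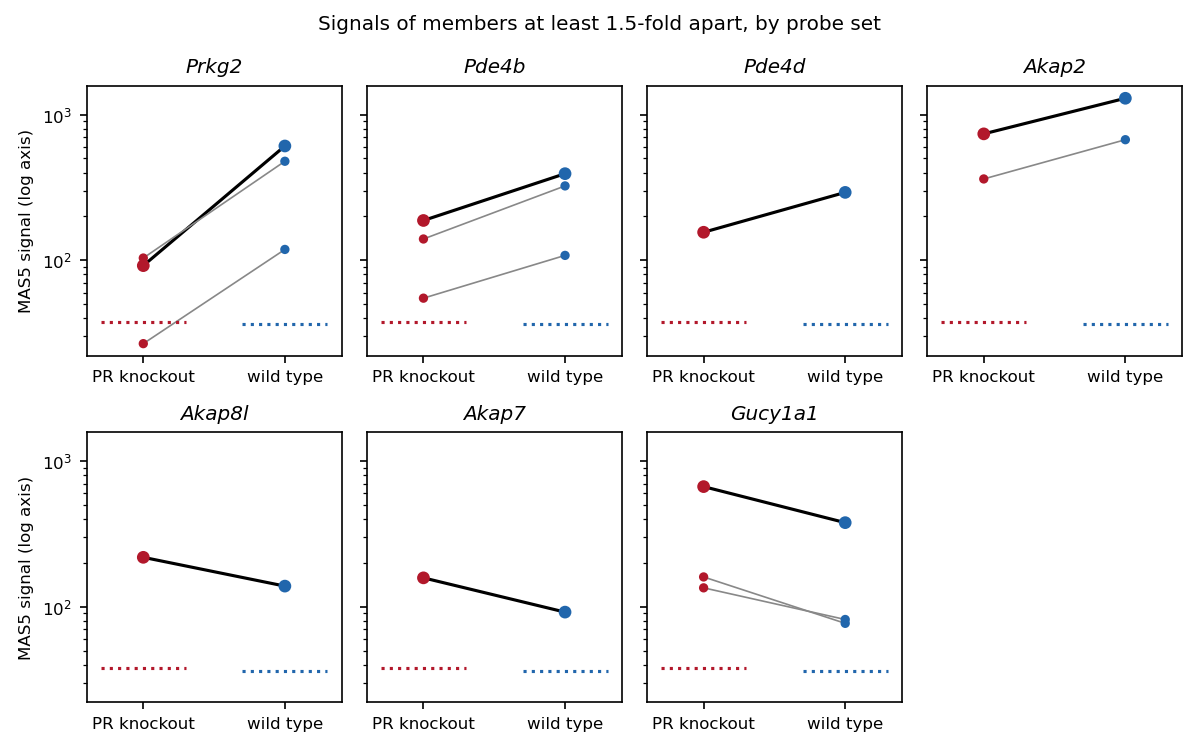
MAS5 signals on a log axis for the 7 members at least 1.5-fold apart, with PR knockout on the left and wild type on the right of each panel. Each line is a measured probe set of the gene (black, the probe set used for the gene; grey, the others), and dotted lines mark each array's floor. Pde4d, Akap7 and Akap8l have 1 measured probe set each, so their panels cannot show agreement. In the other panels the probe sets of a gene slope the same way, and Prkg2 slopes most steeply.

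Among the phosphodiesterases specific for cyclic AMP, Pde4b and Pde4d were lower in the PR knockout ovary, and none of the other measured genes was 1.5-fold lower. Pde4b, whose enzyme is a main target of anti-inflammatory PDE4 inhibitors, had signals of 187 in the PR knockout and 393 in the wild-type ovary, 2.10-fold lower. Its other measured probe sets read 140 against 324 and 54.9 against 108 in the same order, so the 3 differences ran from -1.21 to -0.98. With an offset added to each signal in place of the floor, Pde4b differed by -0.95 and was under 2-fold. Pde4d, whose loss in mice impairs ovulation and female fertility, had signals of 156 in the PR knockout and 292 in the wild-type ovary. It was 1.88-fold lower by the 1 probe set measured. Pde4a was under the floor on both arrays.

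The other genes of this group went different ways. Pde8a, which encodes a phosphodiesterase of high affinity for cyclic AMP, had signals of 622 in the PR knockout and 661 in the wild-type ovary, a difference of -0.09 that turned to 0.17 with the mean over its probe sets. Pde7b had signals of 604 in the PR knockout and 510 in the wild-type ovary, a difference of 0.25 that turned to -0.13 with that mean. Pde7a was more even in direction, since all 7 of its measured probe sets were higher in the PR knockout ovary, by 0.15 to 0.40. Pde8b was measured through the PR knockout array alone, at 47.3, close to the Pgr signal, and its wild-type signal of 21.6 was under the floor, so its difference of 0.38 is a lower bound.

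Promoters are shown for these genes because cyclic AMP acts on transcription through the CREB family, whose full site is TGACGTCA and whose core is TGACG. Sequences are from RefSeq (GRCm38.p6), 250 bases before to 50 after an annotated start, 5′ to 3′ on the gene's strand, with capitals marking TGACGTCA or TGACG on either strand. Pde4b has 4 annotated starts in the table and Pde4d 1. The Pde4b start shown is the one of the 4 that holds the core, the Pde4d start is its only one, and Prkar1a, a PKA subunit gene with nearly equal signals on both arrays, is shown because it was the one member gene of 55 in the table with the full site.
Pde4b, chr4:102421305-102421604, plus strand: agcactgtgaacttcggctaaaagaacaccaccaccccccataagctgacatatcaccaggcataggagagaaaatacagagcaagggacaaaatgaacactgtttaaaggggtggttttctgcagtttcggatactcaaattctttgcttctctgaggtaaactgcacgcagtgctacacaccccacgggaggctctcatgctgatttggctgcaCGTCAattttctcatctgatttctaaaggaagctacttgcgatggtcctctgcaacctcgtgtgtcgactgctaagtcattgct
Pde4d, chr13:108653927-108654226, plus strand: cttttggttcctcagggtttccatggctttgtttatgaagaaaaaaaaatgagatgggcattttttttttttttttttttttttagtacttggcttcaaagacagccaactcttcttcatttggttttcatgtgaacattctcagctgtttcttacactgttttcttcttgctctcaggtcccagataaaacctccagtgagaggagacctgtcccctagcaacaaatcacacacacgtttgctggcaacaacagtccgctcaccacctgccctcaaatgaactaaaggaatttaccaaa
Prkar1a, chr11:109650699-109650998, plus strand: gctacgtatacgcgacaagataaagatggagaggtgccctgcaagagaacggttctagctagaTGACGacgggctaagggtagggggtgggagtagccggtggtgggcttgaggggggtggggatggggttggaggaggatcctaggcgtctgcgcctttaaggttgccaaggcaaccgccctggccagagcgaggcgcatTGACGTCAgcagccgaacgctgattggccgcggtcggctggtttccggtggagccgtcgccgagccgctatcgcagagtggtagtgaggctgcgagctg

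In these windows, the Pde4b promoter held the core once, on the opposite strand with its first letter at -34 from the start, and the Pde4d promoter held neither. The Prkar1a promoter held the full site at -49, which contains the core on both strands, and a further core at -187. TGACGTCA was in 2 of 101 member promoters (1.98%, both Prkar1a starts whose windows overlap) and in 1.79% of all 32851 promoters in the table. TGACG was in 21.8% of the member promoters and in 20.8% of all, counting those inside the full site. The progesterone receptor motif ACANNNTGT, also read on both strands, was in 12 member promoters (11.9%) and in 6.85% of all, and in none of the Pde4b, Pde4d, Gucy1a1, Akap7 or Akap8l windows. Promoters of 1 gene can overlap, and Pde8b gave 3 of the 12. A match of letters is no binding site by itself, and Prkg2 and Akap2 are named only.

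Phosphodiesterases that accept both cyclic nucleotides showed no member 1.5-fold apart. Of 8 genes, 6 were measured, with differences from -0.27 for Pde1a to 0.24 for Pde1b, both calmodulin-activated enzymes. Pde1b lay only a little above the floors, at 52.8 in the PR knockout and 44.9 in the wild-type ovary. Pde2a, which cyclic GMP stimulates, had signals of 443 in the PR knockout and 421 in the wild-type ovary, but its 3 probe sets ran from -0.44 to 0.35 and gave no direction. Pde3b, which cyclic GMP inhibits, had signals of 314 in the PR knockout and 267 in the wild-type ovary, 0.23 higher. Pde3a, the form of the oocyte, was barely measurable at 41.5 in the PR knockout and 17.5 in the wild-type ovary. Those signals lie under or near the Pgr signals, so the arrays do not show whether Pde3a differed. Pde10a was lower in all 4 of its measured probe sets, by -0.56 to -0.14, where the first is a bound because the PR knockout signal was under the floor. Pde1c and Pde11a were under the floor on both arrays.

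Of the phosphodiesterases specific for cyclic GMP, Pde5a was the only one measured. Its product is the target of sildenafil. The signals were 500.1 in the PR knockout and 429 in the wild-type ovary by a probe set that may also bind other transcripts, a difference of 0.22, and the further probe sets gave 0.33 and 0.01. The photoreceptor genes Pde6a, Pde6b and Pde6c, and Pde9a, were under the floor on both arrays. Pde6d, a carrier of prenylated proteins, had signals of 387 in the PR knockout and 345 in the wild-type ovary. Pde4dip, a centrosome and Golgi protein that binds PDE4D, had 176 and 167 in the same order, a difference of 0.07 that turned sign after scaling to the median.

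On the side of synthesis, no adenylyl cyclase gene was 1.5-fold apart. Of 10 genes, 7 were measured, 4 of them higher in the PR knockout ovary and 3 lower, where 57.7% of all measured genes were higher. The median was 0.20, and 0.09 without the loess trend. Adcy9 had signals of 410 in the PR knockout and 356 in the wild-type ovary, and all 4 of its probe sets were higher, by 0.20 to 0.68. Adcy6, a calcium-inhibited cyclase, had signals of 325 in the PR knockout and 282 in the wild-type ovary, 0.21 higher. Adcy7 was the farthest from equality in this group, 0.46 higher, with 3 probe sets from 0.46 to 0.78. The probe sets of Adcy5 disagreed. The one used for the gene, which may also bind other transcripts, was at -0.11 and another at 1.16. The one at 1.16 read 99.7 in the PR knockout and 44.6 in the wild-type ovary. Those of Adcy3 ran from -1.18 to -0.00. Adcy2 and Adcy4 differed by -0.06 and 0.21. The calcium-stimulated neuronal cyclase genes Adcy1 and Adcy8, and Adcy10, the soluble bicarbonate-sensing cyclase, were under the floor on both arrays.

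PKA consists of regulatory and catalytic subunits, and here 1 regulatory subunit gene stood out. Prkar2b, which follicle-stimulating hormone induces as granulosa cells mature, had signals of 4846 in the PR knockout and 3306 in the wild-type ovary, 1.47-fold higher. The further probe sets read 3666 in the PR knockout against 2452 in the wild-type ovary, and 2073 against 1209. All 3 were thus higher, by 0.55 to 0.78, and with the mean over probe sets Prkar2b was past 1.5-fold at 0.64. Prkar1a had signals of 2399 in the PR knockout and 2490 in the wild-type ovary, and its other measured probe set read 2437 and 2425 in the same order. Its difference of -0.05 changed sign with quantile normalization (0.04). Prkar2a was lower in both measured probe sets, by -0.52 and -0.15, and Prkar1b in 4 of 5. The catalytic subunit gene Prkacb was 0.24 higher, and its other measured probe set 0.64 higher. Prkaca gave -0.26 by a probe set that may also bind other transcripts and 0.27 by another. The median of the 6 subunit genes was -0.10. With only those probe sets that match 1 transcript Prkaca has none left, and the median of the remaining subunit genes was 0.01.

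**Figure D3:**
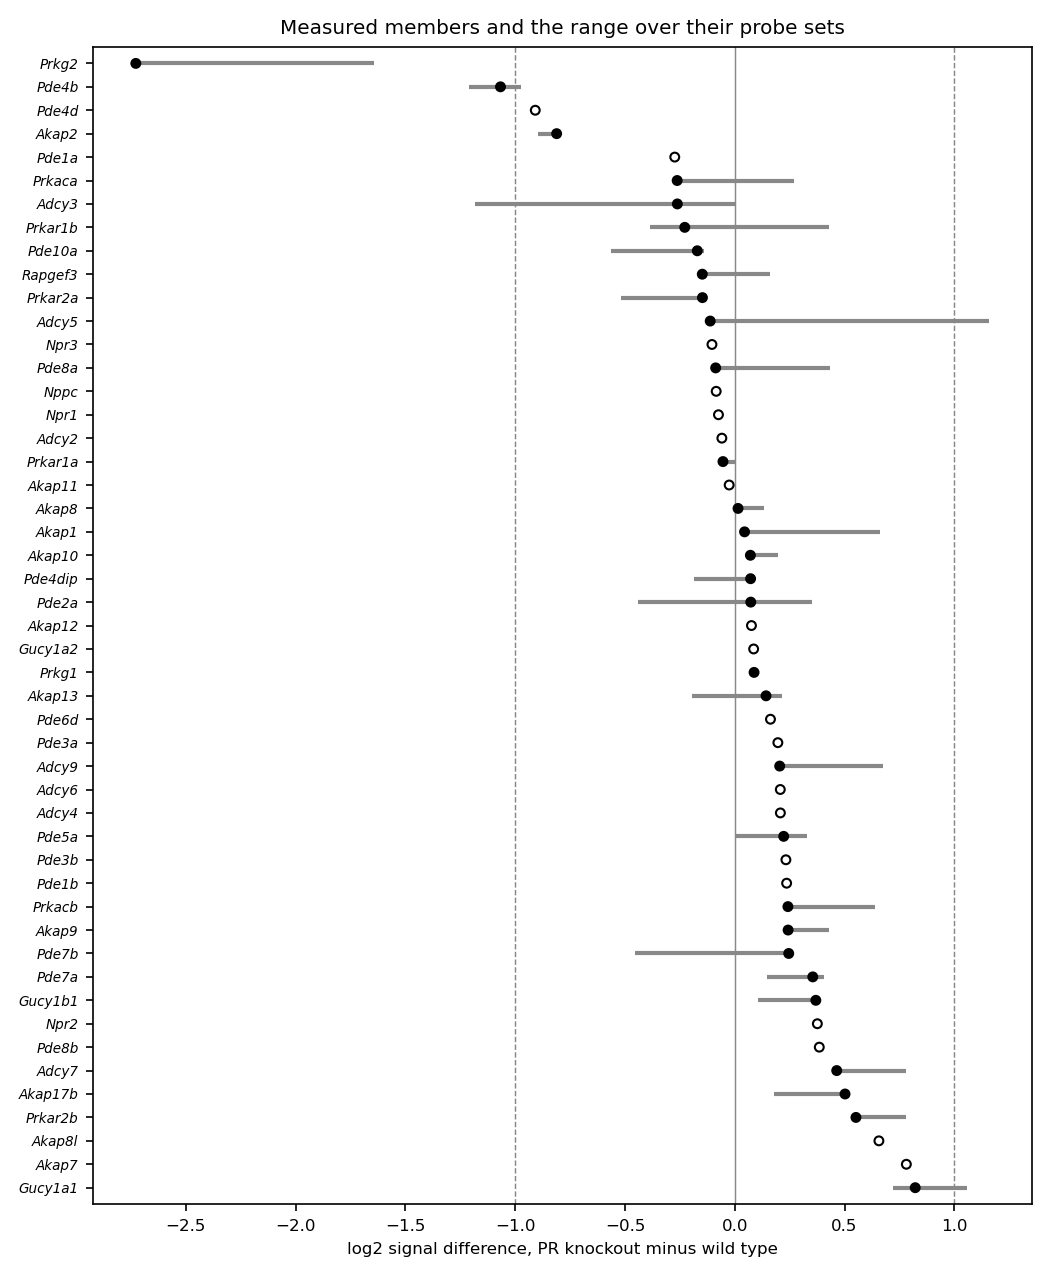
Differences in log2 signal, PR knockout minus wild type, for the 49 measured members in order, with grey bars for the range over each gene's measured probe sets. Open circles have 1 measured probe set. Prkg2, Pde4b, Pde4d and Akap2 lie apart at the top, and bars such as those of Adcy5 and Adcy3 span over 1 log2 unit.

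The A-kinase anchoring proteins held members on both sides. Of 16 genes, 11 were measured, with a median of 0.08, of which 1 was lower and 2 were higher by 1.5-fold or more. These are 9.09% and 18.2%, against 4.75% and 6.54% of all measured genes, on counts too small to set the group apart. Akap2, which anchors PKA at the actin cytoskeleton of epithelial cells, had signals of 737 in the PR knockout and 1293 in the wild-type ovary, 1.76-fold lower. Another Akap2 probe set read 361 in the PR knockout and 672 in the wild-type ovary, a difference of -0.89. On the other side, Akap7, a membrane-bound anchor that in heart holds PKA near ion channels, had signals of 158 in the PR knockout and 91.9 in the wild-type ovary, 1.72-fold higher. With the floor at percentile 70, its wild-type signal was under the floor of 120.9, so its difference of 0.38 there is a lower bound. Akap8l, a nuclear protein, had signals of 218 in the PR knockout and 139 in the wild-type ovary, 1.58-fold higher. It was just under 1.5-fold after scaling to the median (0.58), without the loess trend (0.56) and with the offset (0.55). Its relative Akap8 differed by only 0.01.

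The other measured anchors lay nearer to equality. Akap13, which also activates the GTPase RhoA, had signals of 659 in the PR knockout and 597 in the wild-type ovary, and its 4 measured probe sets ran from -0.20 to 0.22. Akap1 at mitochondria, Akap9 at the centrosome and Golgi, Akap10, Akap11 and Akap12 differed by -0.03 to 0.24, though the other probe set of Akap1 gave 0.66. Akap17b was 0.50 higher. Akap3, Akap4 and Akap14, genes of sperm and cilia, and Akap5 and Akap6, known from neurons and muscle, were under the floor on both arrays. Rapgef3, the cyclic AMP-activated exchange factor for RAP GTPases, was near the floors at 51.8 in the PR knockout and 57.5 in the wild-type ovary.

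For cyclic GMP synthesis, the nitric oxide-sensitive cyclase had a subunit gene at least 1.5-fold higher in the PR knockout ovary. Gucy1a1, its alpha subunit gene, had signals of 668 in the PR knockout and 378 in the wild-type ovary, 1.77-fold higher. The further probe sets read 160 in the PR knockout against 76.9 in the wild-type ovary, and 135 against 81.7, so the 3 differences ran from 0.72 to 1.06. Gucy1b1, the beta subunit gene, was 0.37 higher, at 250 in the PR knockout and 194 in the wild-type ovary, and its other probe set gave 0.11. Gucy1a2 was barely above the floor on both arrays, at 39.5 in the PR knockout and 37.2 in the wild-type ovary.

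In the natriuretic peptide arm no gene was 1.5-fold apart. Npr2, the receptor cyclase of granulosa cells, had signals of 627 in the PR knockout and 483 in the wild-type ovary, 0.38 higher by its 1 probe set. Its ligand gene Nppc was dim at 50.4 in the PR knockout and 53.4 in the wild-type ovary, a difference of -0.08. Npr3, a clearance receptor, differed by -0.10. Npr1 was under the floor in the PR knockout ovary at 34.1 and just above it in the wild-type ovary at 40.0. Gucy2c, the guanylyl cyclase of the gut, and Gucy2e and Gucy2g, sensory forms in mice, were under the floor on both arrays.

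Probe sets of a gene gave the one spread these arrays allow, which leaves out the spread between animals. Where several probe sets of a gene reached the floor on the PR knockout and the wild-type array alike, as in 4771 genes, their differences had an SD of 0.25 within a gene. It was 0.28 over the 28 members of that kind. Of 30 members with at least 2 measured probe sets, 20 had all of them on one side of 0, 14 higher and 6 lower. This is 66.7%, against 57.3% of the 5271 genes of the array with as many measured probe sets, and it counts probe sets close to 0 such as one of Adcy3 and one of Pde5a. The 6 were Prkg2, Pde4b, Akap2, Pde10a, Prkar2a and Adcy3. The other 10, among them Prkaca, Adcy5 and Pde2a, had probe sets on both sides.

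Other genes of the pathway were counted in the same way. A list of 49 receptors, G proteins, CREB-family regulators, nitric oxide synthases and kinase targets had 42 members with a probe set and 29 measured, with 0 at least 2-fold apart and a median of 0.00. At 1.5-fold, 2 of the 29 were lower and 1 higher. Ptger4, a cyclic AMP-raising receptor of prostaglandin E2, had signals of 96.3 in the PR knockout and 168 in the wild-type ovary, 1.74-fold lower. Crem, a CREB-family gene that also makes the cyclic AMP-induced repressor ICER, had 272 in the PR knockout and 416 in the wild-type ovary, 1.53-fold lower. A further measured probe set for Crem gave -1.23. Mrvi1, a substrate through which PRKG1 acts on calcium release, had 225 in the PR knockout and 150 in the wild-type ovary, 1.51-fold higher, under 1.5-fold in each of the 3 rescalings, and its other measured probe set gave 1.56.

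By list, receptors that stimulate adenylyl cyclase had a median of 0.31 over 6 measured genes, with 4 higher and 2 lower. The G protein subunit genes had a median of -0.00 over 4, and the stimulatory subunit gene Gnas had signals of 4644 in the PR knockout and 4502 in the wild-type ovary, with probe sets from -0.75 to 0.77. The G protein median turned to 0.08 with quantile normalization and to -0.29 with only those probe sets that match 1 transcript. PKA inhibitors and CREB-family regulators had a median of -0.14 over 9, with 6 lower. The nitric oxide synthase and peptide processing list had a median of -0.19 over 3, and the list of kinase targets and efflux transporters 0.09 over 7.

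**Figure D4:**
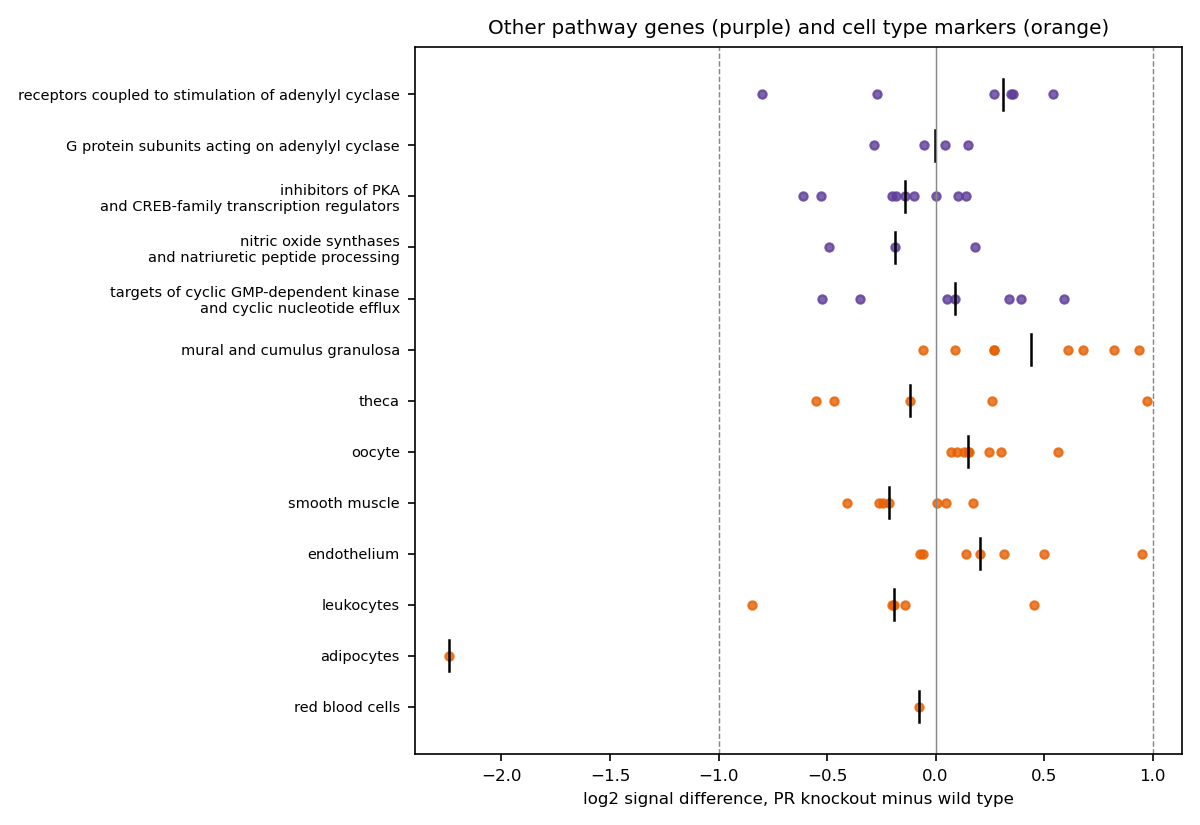
Differences in log2 signal, PR knockout minus wild type, for measured genes of 5 further pathway lists (purple) and 8 cell type marker lists (orange), with a black line at each list's median and dashed lines at 2-fold. Granulosa markers lie mostly to the right of 0, with a median of 0.44, and the pathway lists straddle it.

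Markers of ovarian cell types also differed between the samples, and in whole-ovary RNA fewer cells of a type and less RNA per cell cannot be told apart. Granulosa markers were higher in the PR knockout ovary in 7 of 8 genes, with a median of 0.44 and a summed signal of 16377 in the PR knockout against 14544 in the wild-type ovary. They included Foxl2, Inhba, Inhbb and Esr2 at least 1.5-fold higher, of which 3 stayed past that threshold after scaling to the median. Of the members described above as granulosa genes, Prkar2b was 0.55 and Npr2 0.38 higher, both under 1.5-fold. Endothelial markers were higher in 5 of 7 genes, with a median of 0.21 and sums of 1669 in the PR knockout and 1436 in the wild-type ovary, and Tie1 was at least 1.5-fold higher. Smooth muscle markers had a median of -0.21, with 4 of 7 lower and sums of 10307 in the PR knockout and 11057 in the wild-type ovary. Gucy1a1 and Gucy1b1 are known from vessel walls, and so stand beside both lists.

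Leukocyte markers were lower in 4 of 5 measured genes, with a median of -0.19. Itgam and Cd3e of this list were under the floor on both arrays, at 7.29 and 2.26 in the PR knockout and 13.4 and 20.0 in the wild-type ovary. Summed signals of the list, 680.0 in the PR knockout and 695 in the wild-type ovary, take in these 2 genes. The sums therefore give no direction for the measured markers. Tyrobp was 1.80-fold lower, while Csf1r, a receptor gene of macrophages, was 0.45 higher, with signals of 380 in the PR knockout and 277 in the wild-type ovary. Leukocytes are known to express Pde4b, and what part they have in its signal was not tested. Oocyte markers were higher in 8 of 8 genes (7 after scaling to the median), with a median of 0.15, sums of 2533 in the PR knockout and 2187 in the wild-type ovary and 0 genes at least 1.5-fold apart. Theca markers went both ways, with Ptch1 1.97-fold higher in the PR knockout ovary and the steroidogenic genes Star and Cyp17a1 at -0.55 and -0.47. They had a median of -0.12 over 5 genes, which turned to 0.05 with quantile normalization and 0.03 without the loess trend, with sums of 17759 and 20632 in the same order. Of the adipocyte list, Adipoq, Cidec, Lep and Retn were under the floor on both arrays and Fabp4 read 70.9 in the PR knockout and 335 in the wild-type ovary. Of the red blood cell list, Hba-a1 was under the floor and Alas2 had 83.4 in the PR knockout and 87.8 in the wild-type ovary. What part cell makeup has in the differences of the members was not tested.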

How the data were processed

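RNA from 1 PR knockout and 1 wild-type ovary sample was read on 1 Affymetrix Mouse Genome array each. Per the submitters' processing notes, the deposited intensities were computed by the authors with MAS5 in Affymetrix Expression Console version 1. The deposited intensities had a mean of 150 on both arrays after 2% was trimmed at each end. MAS5 subtracts mismatch probes, so the lowest signals are noisy, and the number of arrays limits precision. Of 45101 probe sets, 64 controls were set aside and 34945 of the rest had exactly 1 symbol in the platform annotation. Of the 67 member gene IDs, 66 were in the RefSeq table of GRCm38.p6, all with the same symbol, and Akap2 was not.

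Signals under the array median were set to it before log2 was taken, and a gene was measured if it reached this floor on at least 1 array. Differences were computed in Python 3.11.15 with pandas 2.3.3 and numpy 2.4.6, the loess trend (span 0.3) with statsmodels 0.14.6. Calculations were tested on simulated data. Alternatives were 3 rescalings, a floor at percentile 70, no floor, an offset of 32, the mean over probe sets, probe sets matching 1 transcript only, and thresholds of 1.5-fold and 3-fold. Signals on both arrays were to be given for members at least 1.5-fold apart and for the 2 brightest measured members of each role, and members named beyond this rule were chosen after their values were seen. Members, lists and rules were chosen with earlier results of these data known. List genes without a single-symbol probe set were not analysed here.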

Additional observations from a re-analysis of the deposited data

How the results depend on the processing

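The counts of members depended on the floor and threshold. As reported, 2-fold differences were seen in 2 members, both lower in the PR knockout ovary, with 0 higher. With an offset of 32 in place of the floor, 1 member (Prkg2) was at least 2-fold lower. Without a floor, 2 members (Pde3a and Pde8b, both under the floor in the wild type) were at least 2-fold higher, and with only those probe sets that match 1 transcript 1 was (Adcy5). At 1.5-fold, 4 members were lower and 3 higher, and at 3-fold 1 was lower. Under the other alternatives Prkg2 and Pde4b were the members at least 2-fold lower, with 0 higher. The median over measured members ran from 0.00 after scaling to the median to 0.16 without the multiply matching probe sets, and exceeded that of all genes by 0.10 at most. Of 291 further values of single members, roles and lists under the alternatives, 279 moved by less than the within-gene SD, 12 moved by more and 0 of the members at least 1.5-fold apart changed sign. Many of the 291 could not move far. A gene above the floors keeps its value when the floor is dropped, and scaling to the median shifts all values alike by less than that SD. The count of 279 is therefore no measure of robustness. The cause of the moves was not tested. Prkg2 ran from -2.80 to -2.19. The median of the cyclic AMP phosphodiesterases turned to -0.09 with the floor at percentile 70, where 36 members were measured. No paired analysis was possible because each genotype has 1 array. Signals close to the floor limit what can be said of genes such as Pde3a, Pde8b, Npr1, Gucy1a2, Pde1b, Nppc, Prkg1 and Rapgef3.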
